A study of Mus musculus with 8 samples.

Results

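The sarcomeric myosin chains are the heavy and light chains of the thick filament, the motor of striated muscle. The 10 genes described here were chosen by name, with earlier results of these data known, so their counts beside all genes are a description. They are the heavy chains Myh1, Myh3, Myh6, Myh7 and Myh8, and the light chains Myl1, Myl2, Myl3, Myl4 and Mylpf. All probe sets that the platform annotation assigns to exactly 1 of these genes were taken, which gave 16 of the 34945 probe sets naming 1 gene, and 10 of 18193 genes. The values come from tongue buds of mouse embryos at embryonic day 13.5, strain C57BL/6J, with 4 arrays in each group. Control embryos were Alk5 fl/fl. Mutant embryos carried Wnt1-Cre on the same Alk5 fl/fl background, so both groups share the floxed alleles of Alk5, a type I receptor of TGF-beta. Wnt1-Cre acts in cranial neural crest cells, and tongue muscle cells, which descend from mesoderm, are outside its main domain. The driver was absent from every control, so what Wnt1-Cre itself does and what deletion of the receptor does cannot be told apart. The series asks how crest cells that cannot receive this signal interact with the cells that form head muscle.

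A sarcomeric myosin is built of a pair of heavy chains, each holding an essential and a regulatory light chain at its neck. Developing skeletal muscle first uses the embryonic heavy chain Myh3 and the perinatal heavy chain Myh8 together with the slow chain Myh7, and later replaces the developmental forms with adult fast forms such as Myh1. The light chains change in a like manner: Myl4 is the essential light chain of embryonic muscle and of the atrium, Myl1 and Mylpf are the fast essential and regulatory chains, and Myl3 and Myl2 are their counterparts in slow muscle and the cardiac ventricle. Myh6 is the alpha heavy chain of the heart.

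In mutants 7 of the 10 genes fell and 0 rose (limma, adjusted p under 0.05 over all genes; 0 were higher at an unadjusted p under 0.05 too), where 5.52% of all genes fell, 4.2% rose and 9.72% did either. The 7 were the heavy chains Myh3, Myh7 and Myh8 and the light chains Myl1, Myl3, Myl4 and Mylpf, and they fell by 0.64 to 0.93 on the log2 scale. The median change of the 10 genes was −0.70, against −0.01 over all genes. Embryonic, perinatal, slow and fast chains were all among those that fell. The adult fast chain Myh1, the cardiac chain Myh6 and the slow light chain Myl2 did not pass. In 8 of the 10 genes all 4 mutant values lay below all 4 control values, which holds for 8.87% of genes overall. In 0 of the 10 all mutants lay above all controls, which holds for 8.92% of genes overall. The number of the 10 genes that fell was 6 without control 2, control 4, mutant 3 or mutant 4, 8 without control 3, and 7 without controls 1 and 3 together. In bulk RNA of buds, fewer muscle cells and less RNA per muscle cell cannot be told apart.

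Array medians lay between 5.96 and 6.01 on the log2 scale, and arrays correlated at 0.995 to 0.998 within groups and 0.992 to 0.995 between groups, across genes. The targeted gene, whose symbol is Tgfbr1, was higher on the arrays labelled mutant by 0.39, and its probes are not placed relative to the floxed part, so it checks neither deletion nor labels. Control 3 had a mean log2 value of 3.09 over 3 Y-linked genes against 8.44 to 8.73 on the other arrays, and control 1 lay farthest along the second principal component. The titles number the buds without naming litters, so p-values measure the spread between these samples only. Of 11 skeletal muscle markers 5 fell, with array means of 9.49 to 9.77 in controls and 9.03 to 9.30 in mutants, and 0 were below the median of probe set means (5.99). Several members are also heart genes, and of 10 heart muscle markers 8 lay below that median, among them Nppa (3.76 in controls, 3.66 in mutants), Tbx20, Irx4, Bmp10 and Myl7. Nkx2-5 (8.35 and 8.01) and Tbx5 (6.07 and 6.15) lay above it. Nkx2-5 was the 1 heart marker of 10 that fell (−0.34, adjusted p = 0.00785). With probe sets averaged Tbx20 rose by 0.26 (limma, adjusted p = 0.0271). The array means of the 10 were 5.40 to 5.59 in controls and 5.41 to 5.48 in mutants.

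The heavy chain genes Myh3, Myh1 and Myh8 lie in this order in 1 cluster on chromosome 11, with Myh2 between Myh3 and Myh1 and Myh4 between Myh1 and Myh8. The sequences just upstream of 2 of these neighbours are shown because they hold the longest run shared by any pair of members, where Myh8 fell in mutants and Myh1 did not pass. The difference between these 2 changes was not tested. Each is the 250 bases before the RefSeq start (GRCm38.p6, plus strand, 5′ to 3′), at chr11:67276874-67277123 for Myh8 and chr11:67199852-67200101 for Myh1. Capitals mark the shared run of 22 bases.
Myh8: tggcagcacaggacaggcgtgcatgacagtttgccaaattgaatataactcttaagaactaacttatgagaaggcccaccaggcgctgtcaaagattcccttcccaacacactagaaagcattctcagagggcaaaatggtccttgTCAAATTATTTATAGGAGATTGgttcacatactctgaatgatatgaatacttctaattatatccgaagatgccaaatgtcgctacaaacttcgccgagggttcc
Myh1: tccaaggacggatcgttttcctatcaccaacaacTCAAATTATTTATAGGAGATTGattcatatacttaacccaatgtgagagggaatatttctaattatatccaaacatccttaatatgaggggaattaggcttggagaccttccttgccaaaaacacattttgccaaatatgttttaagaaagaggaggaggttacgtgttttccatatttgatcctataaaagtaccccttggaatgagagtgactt
The run holds a match to the MEF2 motif, the site of the MEF2 muscle transcription factors, at positions −99 to −90 from the Myh8 start and −211 to −202 from the Myh1 start. Such a match was found in 2.92% of 32851 windows of this length, and among the 10 member genes only in these 2. The next longest run shared by 2 members had 11 bases.

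The windows of the embryonic heavy chain Myh3 (chr11:67078050-67078299) and of the fast regulatory light chain Mylpf (chr7:127211358-127211607), both on the plus strand, are shown for 2 genes that fell. Capitals mark matches to the E-box CANNTG, the kind of site that the myogenic factors bind.
Myh3: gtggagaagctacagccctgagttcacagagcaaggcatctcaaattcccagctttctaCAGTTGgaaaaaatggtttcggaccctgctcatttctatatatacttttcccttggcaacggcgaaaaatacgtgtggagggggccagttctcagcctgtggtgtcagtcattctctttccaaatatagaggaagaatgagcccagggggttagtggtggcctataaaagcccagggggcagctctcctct
Mylpf: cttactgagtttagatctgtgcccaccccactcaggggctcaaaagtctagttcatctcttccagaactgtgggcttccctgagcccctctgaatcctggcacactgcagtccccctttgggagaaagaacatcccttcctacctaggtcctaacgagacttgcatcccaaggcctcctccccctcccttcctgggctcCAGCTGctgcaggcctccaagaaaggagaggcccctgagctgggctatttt
Both strands were searched. An E-box was found for 8 of the 10 genes, and in 66.2% of all windows. Matches to MCAT (CATTCC) were found for 5 of the 10 genes and in 12.6% of all windows, and CArG, the serum response factor motif, was matched for Myl3 alone (1.47% of all windows). A run of TATAAA, which can overlap the MEF2 match, was found for 5 genes and in 12.4% of windows. A match is a description of these letters only, and 2 genes, Myl2 and Myh7, have 2 start sites in the table.

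Myh3, the embryonic heavy chain, had log2 values of 13.05, 13.24, 12.97 and 13.20 in the control buds, given here and after in the order of replicates 1 to 4, against 12.35, 12.67, 12.24 and 12.47 in the mutant buds (probe set 1427115_at). The groups did not overlap, and the highest mutant value lay 0.30 below the lowest control value. The means were 13.11 ± 0.13 and 12.43 ± 0.18 (SD, n = 4 each), so that mutants held 62.4% of the control signal (log2 change −0.68, SE 0.098, adjusted p = 0.00287). The call held in all 16 alternative settings.

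Myh8, the perinatal heavy chain, read 10.32, 10.92, 10.46 and 10.81 on controls and 9.68, 9.97, 9.37 and 9.76 on mutants (log2 values). Again no mutant reached the lowest control, here control 1. The means were 10.63 ± 0.28 and 9.70 ± 0.25 (SD, n = 4 each), which puts the mutant signal at 52.3% of the control signal. This fall of 0.93 (SE 0.156, adjusted p = 0.00574) was the largest among the 10 genes on their brightest probe sets.

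Myh7, the slow heavy chain that is also the beta heavy chain of the heart, read 9.71, 10.47, 10.20 and 10.43 on controls and 9.52, 9.62, 8.90 and 9.29 on mutants (log2 values). Control 1 stood lowest in its group, only 0.09 above the highest mutant. The log2 change was −0.87 (SE 0.194, adjusted p = 0.022), or 54.7% of the control signal. This call was lost without control 2 (−0.78, adjusted p = 0.0645), control 4 (−0.80, 0.0614), mutant 3 (−0.73, 0.0502) or mutant 4 (−0.86, 0.0604).

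Myh1, the fast heavy chain of type IIx fibres, read 6.93, 7.51, 7.84 and 6.97 on controls and 7.24, 7.17, 6.71 and 6.99 on mutants (log2 values). The groups overlapped, and the spread among controls (SD 0.44) was wider than the difference between groups. The log2 change was −0.28 (95% interval −0.74 to 0.17, adjusted p = 0.446), an interval that holds both no change and a fall as large as that of Myh3. Its other probe sets differed by −0.31 (1427868_x_at) and −0.07 (1452465_at), and neither passed. The change of the brightest set was −0.11 without control 3 and −0.18 without mutant 3. It was −0.41 without control 1 and −0.40 without control 4.

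Myh6, the alpha-cardiac heavy chain and chromosomal neighbour of Myh7, read 6.40, 6.65, 6.69 and 6.30 on controls and 6.66, 6.63, 6.68 and 6.61 on mutants (log2 values). The mutant values lay within the range of the controls. The log2 difference was 0.14 (95% interval −0.06 to 0.33, adjusted p = 0.383). It was 0.07 without control 4 and 0.20 without control 3. A second probe set, 1417729_at, read 2.79 to 2.89 on controls and 2.71 to 3.13 on mutants. Both Myh6 group means on that set lay far below the median of probe set means.

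**Figure D1:**
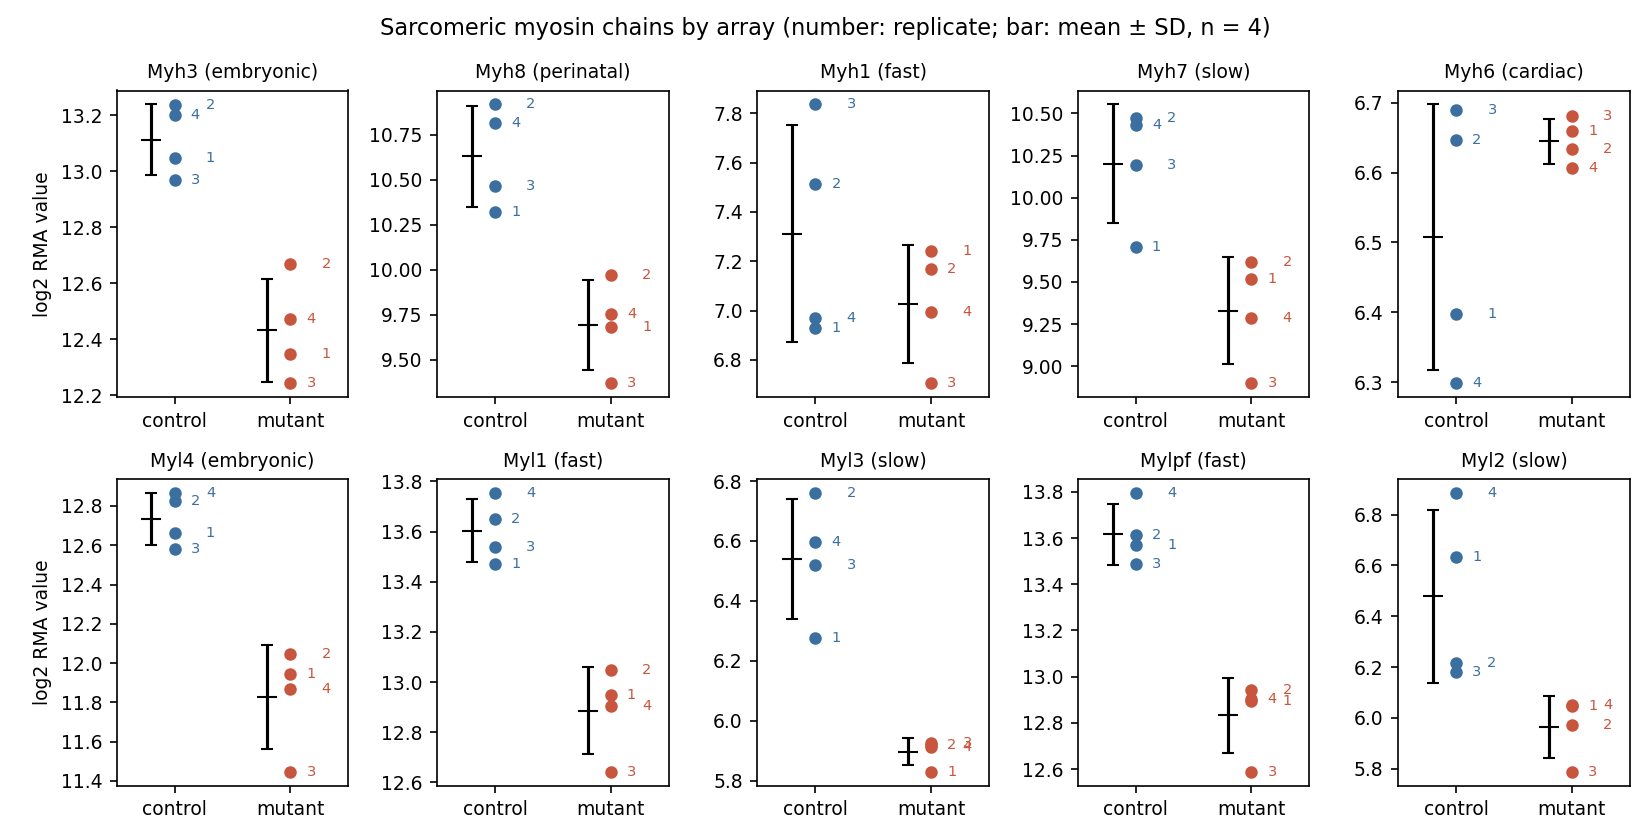
Log2 RMA value (vertical axis, a separate range in each panel) of the brightest probe set of each myosin chain on 4 control and 4 mutant arrays, with replicate numbers beside the points and the group mean ± SD as a bar. All 4 mutants lie below all 4 controls in 8 panels, while Myh1 and Myh6 overlap.

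Among the essential light chains 3 of 3 fell. Myl4, the embryonic and atrial form, read 12.66, 12.82, 12.58 and 12.86 on controls and 11.94, 12.05, 11.45 and 11.87 on mutants (log2 values). The lowest control lay 0.54 above the highest mutant, and the SD was 0.13 in controls and 0.26 in mutants. Its signal in mutants was 53.3% of that in controls (log2 change −0.91, SE 0.125, adjusted p = 0.00232). A dimmer probe set of Myl4, 1457126_at, differed by −0.29 and did not pass over all probe sets (adjusted p = 0.0685), although its groups did not overlap either. With both sets averaged the change of Myl4 was −0.60.

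Myl1, the fast essential light chain, read 13.47, 13.65, 13.54 and 13.75 on controls and 12.95, 13.05, 12.64 and 12.90 on mutants (log2 values). The log2 change was −0.72 (SE 0.0945, adjusted p = 0.00192), with mutants at 60.8% of the controls and no overlap. Myl1 has 1 probe set, whose identifier marks a set matching several transcripts of 1 gene.

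Myl3, the slow and ventricular essential light chain, read 6.28, 6.76, 6.52 and 6.60 on controls and 5.83, 5.92, 5.93 and 5.91 on mutants (log2 values of 1427769_x_at). The mutants spread little (SD 0.045), and their mean of 5.90 was below the median of probe set means, so the size of the change holds for the measured signal only. The log2 change was −0.64 (SE 0.092, adjusted p = 0.00278). All 3 probe sets of Myl3 fell, by −0.99 (1427768_s_at), −0.64 and −0.41 (1428266_at). The first 2 have identifiers that mark possible matches to related transcripts, and with such sets left out Myl3 was at −0.41 (adjusted p = 0.027).

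Of the regulatory light chains 1 of 2 fell. Mylpf, the fast form, read 13.57, 13.62, 13.49 and 13.80 on controls and 12.89, 12.94, 12.59 and 12.90 on mutants (log2 values). The lowest control lay 0.54 above the highest mutant. The change of −0.78 (SE 0.093, 58.1% of the control signal) had the smallest adjusted p of the 10 genes, 0.00115.

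Myl2, the slow and ventricular form, read 6.63, 6.22, 6.18 and 6.89 on controls and 6.04, 5.97, 5.79 and 6.05 on mutants (log2 values). All mutants lay below all controls, but the controls themselves spread widely (SD 0.34). The log2 difference of −0.52 (95% interval −0.85 to −0.18) did not pass (adjusted p = 0.0633). It passed without control 3 (−0.62, adjusted p = 0.0386), with dim probe sets left out (adjusted p = 0.0462) and with trended, robust variances (0.0491). As for Myl3, the mutant mean of 5.96 lay below the median of probe set means.

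Counted by probe set, 9 of 16 fell and 0 rose, against 3.25% of all probe sets falling and 2.69% rising. The 7 that did not pass were all 3 of Myh1, both of Myh6, the dimmer set of Myl4 and the set of Myl2. The number was 6 without control 3, control 4, mutant 3 or mutant 4 and 7 without control 2, mutant 1 or mutant 2. A further 2 probe sets name Myh6 and Myh7 together and were not used.

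**Figure D2:**
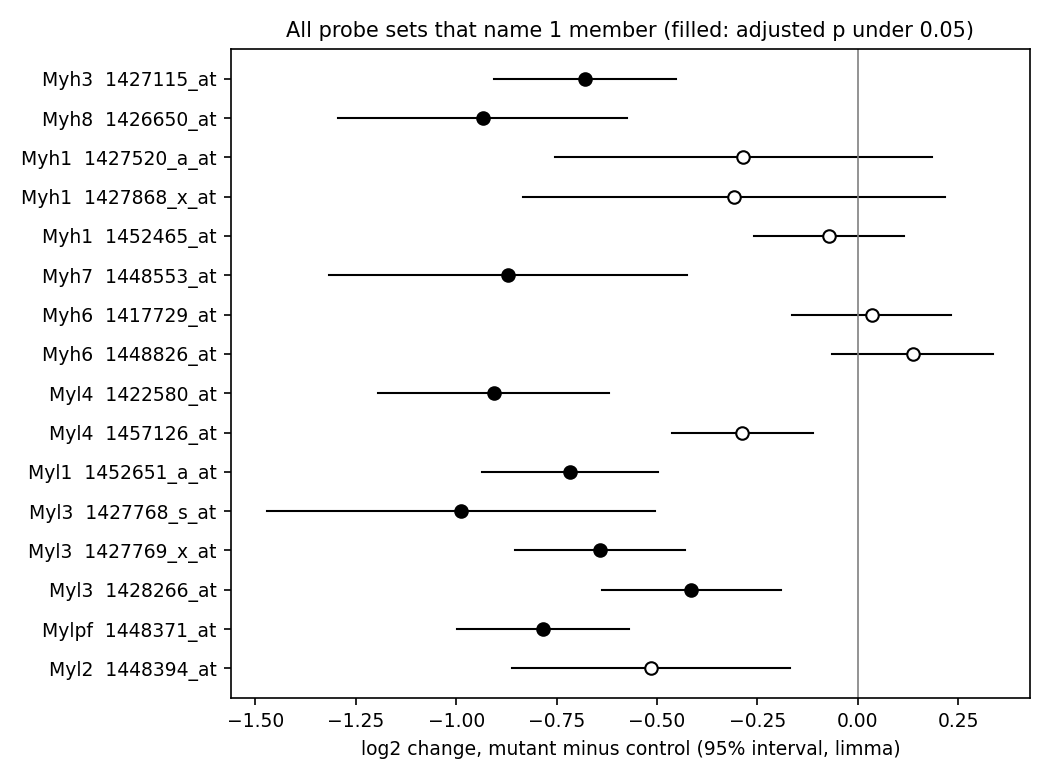
Log2 change, mutant minus control, of the 16 probe sets that name 1 myosin chain, with 95% intervals from limma as lines. Filled points (9 of 16) have an adjusted p under 0.05 over 34945 probe sets, and both Myh6 sets are the points to the right of 0.

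Within each group the same few arrays stood low or high for many members. Mutant 3 held the lowest mutant value for 8 of the 10 genes, and mutant 2 the highest for 6. Control 1 was lowest for 5 and control 3 for 4, while controls 2 and 4 were highest for 4 each. The skeletal muscle marker mean was likewise lowest on control 1 (9.49) and mutant 3 (9.03), but it was 9.60 on control 3. It was highest on control 4 (9.77) and on mutant 4 (9.30), with mutant 2 at 9.25. The part of this marker mean in the myosin values was not tested.

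To ask whether embryonic, perinatal, slow and fast forms changed by different amounts, the difference of 2 chains was taken on each array and compared between groups for 8 pairs, with a permutation test over the arrays (exact, two-sided). The smallest p that 4 arrays against 4 allow is 0.0286. Of the 8 pairs 0 passed after adjustment over the 8, and 2 reached that smallest p. With only 2 pairs at it, adjustment over the 8 gives 0.114, so neither could pass. Myh6 minus Myh7 was −3.31, −3.83, −3.51 and −4.13 on controls and −2.86, −2.98, −2.22 and −2.68 on mutants, a shift of 1.01 (exact permutation p = 0.0286, adjusted p = 0.114). Myh6 lay near the median of probe set means in both groups, and the change of Myh7 alone was −0.87, so most of this shift is the Myh7 term. Myl4 minus Myl1 was −0.81, −0.83, −0.96 and −0.89 on controls and −1.01, −1.003, −1.20 and −1.04 on mutants, a shift of −0.19 with the same p-values. That shift was 0.12 when each gene stood as the average of its probe sets, because Myl4 then includes its dimmer set.

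In the other 6 pairs the groups overlapped. Perinatal Myh8 against embryonic Myh3 shifted by −0.25 (exact permutation p = 0.114), and slow Myh7 against Myh3 by −0.19 (p = 0.286 in the same exact test). The second shift was −0.33 without control 1 and −0.11 without mutant 3. Fast Myh1 against Myh3 shifted by 0.39 with control SD 0.50 (exact p = 0.2), and by 0.62 without control 3 or 0.25 without control 4. Slow Myl2 against fast Mylpf shifted by 0.27 (exact p = 0.0857) and Mylpf against Myl1, both fast, by −0.07 (exact p = 0.143) or −0.04 without control 1. Slow Myl3 against fast Myl1 shifted by 0.07 (exact p = 0.571), by 0.30 on the Myl3 set left when sets that may match related transcripts were omitted (exact p = 0.0571), and by −0.02 without mutant 3. These p-values do not show that the chains changed alike.

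**Figure D3:**
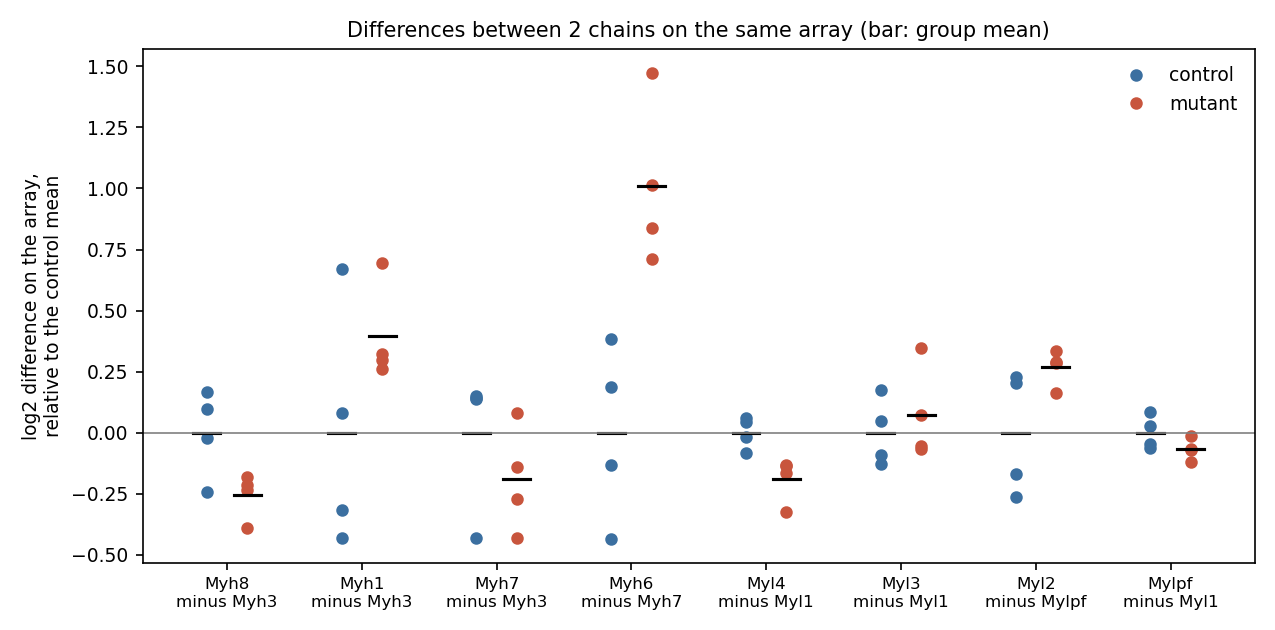
Difference between the log2 values of 2 chains on the same array, relative to the control mean of that pair (vertical axis), for 4 control and 4 mutant arrays, with the group mean as a bar. Only Myh6 minus Myh7 and Myl4 minus Myl1 have groups that do not overlap.

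Each chain was also set against Myog, which encodes the myogenin that drives muscle differentiation and fell by 0.38 (SE 0.062, adjusted p = 0.00516). This comparison was added after the values were seen. Relative to Myog on the same array, Myh8 shifted by −0.56, Myl4 by −0.53, Mylpf by −0.41 and Myl1 by −0.34, each with no overlap between groups (exact permutation p = 0.0286, adjusted p = 0.0571 over the 10). Myh6 shifted by 0.52 with the same p-values. Myh7 shifted by −0.49, Myh3 by −0.30 and Myl3 by −0.26, with overlapping groups (adjusted p = 0.107, 0.0816 and 0.0816 in the same exact test). Myl2 shifted by −0.14 and Myh1 by 0.09, and the Myh1 value was −0.06 without control 4 and 0.28 without control 3. With probe sets averaged Myl4 shifted by −0.22, and without the sets that may match related transcripts Myl3 shifted by −0.04. Of the 10 comparisons 0 passed after adjustment and 5 had an unadjusted p under 0.05. Those 5 stood at 0.0286, the smallest p this test allows, and passing would have needed more chains at that p. That 0 passed therefore does not show that the chains changed as Myog did.

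Other genes of the thick filament and of muscle were read from 6 lists. Over their 71 measured genes, 35 fell and 2 rose, where 5.52% of all genes fell and 4.2% rose. The same shares over all genes stand beside the counts of each list below. Myod1 and Myog also stand among the skeletal muscle markers, Myl7 among the heart markers and Myh11 among the smooth muscle markers. Of 5 other sarcomeric myosin chains 2 fell. Myh4, the fast heavy chain of type IIb fibres and neighbour of Myh8, changed by −0.60 (SE 0.083, adjusted p = 0.00233), or by −0.34 with probe sets averaged, and Myh7b by −0.23 (adjusted p = 0.0163). Myh2, the fast heavy chain of type IIa fibres, differed by 0.11 and did not pass. Its group means of 3.73 and 3.83 were far below the median of probe set means. Those of Myh7b (5.89 and 5.66) were also below it, as was the mutant mean of Myh4 (5.55, against 6.15 in controls). Along the chromosome 11 cluster the log2 changes were thus −0.68 for Myh3, 0.11 for Myh2, −0.28 for Myh1, −0.60 for Myh4 and −0.93 for Myh8. The transcripts of this cluster are alike in sequence, and whether probes of one also read another was not tested.

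Myosins outside the sarcomere serve cell shape and contraction of smooth muscle. Of 10 non-muscle and smooth muscle myosin genes 1 fell, Myl9, a regulatory light chain of smooth muscle (−0.68, SE 0.13, adjusted p = 0.011), and the median change was −0.03. The non-muscle heavy chains Myh9 and Myh10 differed by 0.03 and 0.18 and did not pass (Myh10 passed with trended, robust variances, adjusted p = 0.039), and the smooth muscle heavy chain Myh11 differed by 0.06. The light chains Myl12a and Myl12b each differed by −0.14 without passing, and both passed with dim probe sets left out or with trended, robust variances, which brought the count to 3.

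Genes that fold, phosphorylate or degrade myosin fell in 6 of 11 cases, with a list median of −0.33. Smyd1, a methyltransferase needed for thick filament assembly, changed by −0.75 (SE 0.104), or −0.32 with probe sets averaged, and Unc45b, the chaperone that folds the myosin motor, by −0.71 (SE 0.085). Their general partner Hsp90aa1 differed by 0.02 and did not pass. The ubiquitin ligase gene Trim63, whose product marks myosin for degradation, changed by −0.66, its relative Trim54 by −0.57, the kinase gene Mylk4 by −0.58 and Ppp1r12b, a subunit of myosin phosphatase, by −0.33. The Ppp1r12b call was lost without controls 1 and 3 together and when probe sets were averaged.

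Thick filament and M-band genes fell in 6 of 10 cases, with a median of −0.78. Myom2 and Myom1, which cross-link thick filaments at the M-band, changed by −1.10 and −1.06, Mybpc1, the slow myosin-binding protein C, by −1.01 (−0.48 with probe sets averaged), Mybph by −0.82 and Myom3 by −0.61. The list also held Myot, which encodes myotilin, a protein of the Z-disc and not of the thick filament or M-band, and which changed by −1.03. Without it 5 of 9 genes fell. Ttn, the titin gene, differed by −0.73 without passing (adjusted p = 0.0605), and passed without control 3.

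Thin filament genes fell in 11 of 16 cases and rose in 1, with a median of −0.57. The fast troponin genes Tnnt3, Tnni2 and Tnnc2 changed by −1.23, −1.04 and −0.98, and the skeletal actin gene Acta1 by −1.03. The troponins of slow muscle, Tnni1, Tnnc1 and Tnnt1, changed by −0.76, −0.72 and −0.34, Tnnt2 by −0.86, Tmod1 by −0.65, Tpm1 by −0.49 and Actc1 by −0.35. With probe sets averaged Tnnt2 changed by −0.53 and Tpm1 by −0.28. Tnni3, the cardiac troponin I, rose by 0.41, with both group means (5.17 and 5.58) below the median of probe set means.

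Regulators of fibre type and of myosin genes fell in 9 of 19 cases and rose in 1, with a median of −0.27. Myf6, a myogenic factor, changed by −1.27 and Tbx15, a T-box factor of fast fibres, by −1.08 (SE 0.077). The Myf6 mean was 6.73 in controls (SD 0.52) and 5.46 in mutants, the latter below the median of probe set means. Nfix, which drives the change from embryonic to fetal muscle genes, changed by −1.06, Vgll2, a muscle cofactor of TEAD factors, by −0.94 and Nfatc1, the calcium-regulated factor linked to slow fibres, by −0.90. With probe sets averaged Nfix was at −0.67 and Nfatc1 at −0.29, and both passed. Mef2c changed by −0.57 and did not pass with probe sets averaged (−0.48, adjusted p = 0.0891). Mef2d (−0.24) and Myod1 (−0.31) were also called, but each failed to pass in 6 of the 8 single-array omissions. Mef2d failed without control 1, 2 or 3 or mutant 2, 3 or 4, and Myod1 without control 1, 2 or 4 or mutant 1, 2 or 3. Neither passed in limma with probe sets averaged, where Mef2d was at −0.18 (adjusted p = 0.054) and Myod1 at −0.19 (adjusted p = 0.153). Esrrg, an orphan nuclear receptor of oxidative fibres, rose by 0.81 on its brightest probe set and did not pass with the mean of all its sets (0.23, adjusted p = 0.172). Sox6, a repressor of slow fibre genes, differed by −0.24 and did not pass, except with probe sets averaged (−0.27, adjusted p = 0.048).

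Among the skeletal muscle markers Cav3 changed by −1.003, Chrna1 by −0.79 and Chrng by −0.70, while the precursor genes Myf5, Pax7 and Pax3 differed by 0.10, −0.20 and −0.34 without passing. Des, which encodes the intermediate filament desmin, differed by −0.36 (adjusted p = 0.0546) and passed without control 1. Markers of other cells are given beside these. The mean of 6 neuronal markers differed by −0.51 (7.90 to 8.06 in controls, 7.40 to 7.51 in mutants), with Stmn2 at −1.95, Tubb3 at −1.38 and Elavl4 at −1.22 falling and Nefl rising by 1.63. The mean of 6 endothelial markers differed by 0.34 (7.71 to 7.82 in controls, 7.93 to 8.28 in mutants), with Cdh5 rising by 0.51 and Pecam1 by 0.34. The means differed by −0.26 for 6 macrophage and leukocyte markers (6.91 to 7.09 and 6.62 to 6.90), by −0.30 for 4 Schwann cell and glial markers (8.60 to 8.97 and 8.20 to 8.57), by −0.30 for 5 smooth muscle markers (7.98 to 8.25 and 7.75 to 7.94) and by −0.25 for 6 epithelial markers (10.27 to 10.55 and 9.89 to 10.46). They differed by −0.03 for 5 erythroid markers (8.03 to 8.17 and 7.95 to 8.20) and by 0.08 for 6 markers of neural crest mesenchyme (9.73 to 10.03 and 9.82 to 10.13).

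Several calls among these markers rested on few arrays. Of the smooth muscle markers 3 of 5 fell: Tagln by −0.88, Acta2 by −0.26 and Smtn by −0.24. Tagln held in all 16 settings, but the count was 4 without control 1, 2 without control 4 or mutant 3, and 1 without control 2 or mutant 4. Acta2 was at −0.07 with probe sets averaged and at 0.10 on the set left without possible cross-matches. Of the Schwann cell and glial markers Sox10 (−0.35) and Foxd3 (−0.37) fell, but 1 did without control 2, control 4, mutant 2 or mutant 3, and 0 did without mutant 4. Of the macrophage and leukocyte markers Csf1r fell (−0.60), and its call was lost without control 2, control 4, mutant 2, mutant 3 or mutant 4. The macrophage count was 0 without control 2, control 4, mutant 3 or mutant 4, and 2 without mutant 1. Prrx1, a marker of crest mesenchyme, rose by 0.76 and did not pass without controls 1 and 3 together (0.67, adjusted p = 0.101), and the crest count was 2 without control 1. With probe sets averaged Cdh5 rose by 0.32, and 3 endothelial markers rose without control 1 or control 2. Epithelial and erythroid markers gave 0 calls in the limma fit, where 2 epithelial and 0 erythroid markers had an unadjusted p under 0.05. Nearest to passing were Krt8 (−0.31, called without control 1), Cdh1 (−0.29) and Epcam (−0.21) among the epithelial and Slc4a1 (−0.24), Alas2 (0.09) and Hbb-y (−0.03) among the erythroid markers. The part of any of these in the myosin changes was not tested.

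**Figure D4:**
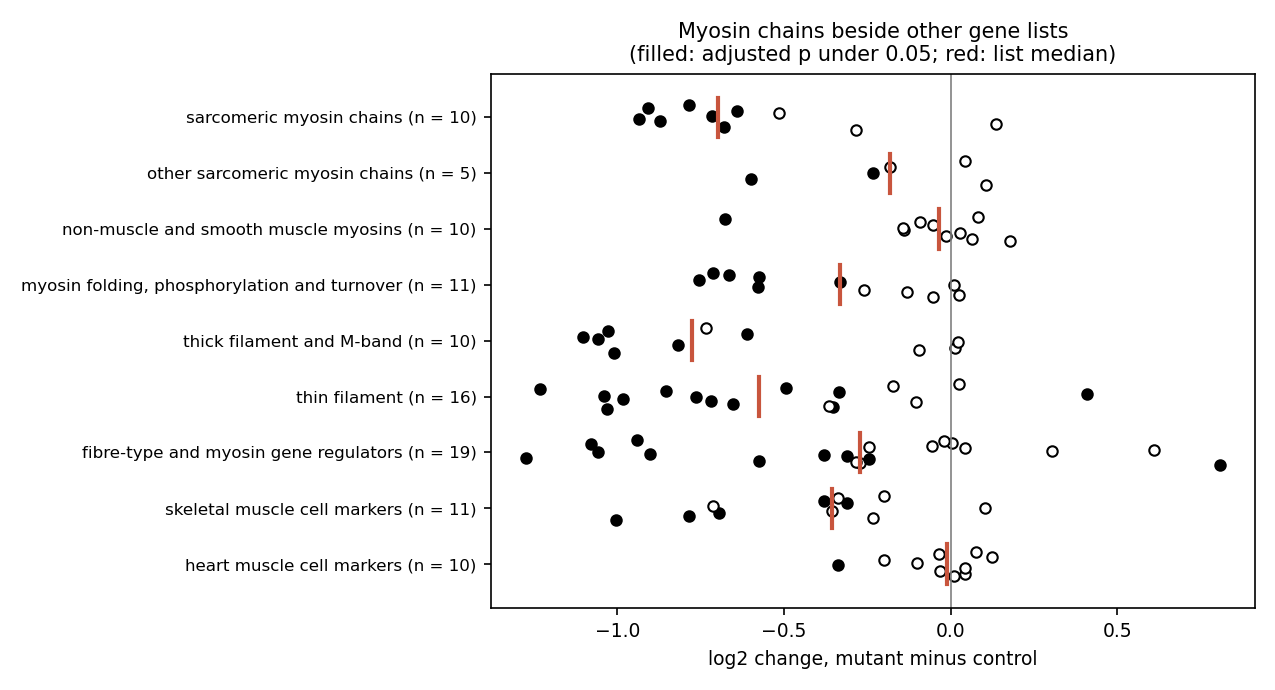
Log2 change, mutant minus control, of the 10 myosin chains and of the measured genes of 8 other lists, 1 point a gene, with filled points for an adjusted p under 0.05 and a red line for the list median. The medians run from −0.78 for thick filament and M-band genes to −0.01 for heart muscle markers, with the myosin chains at −0.70.

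The genes whose log2 values followed Myh3 most closely over the 8 arrays, as Pearson r and leaving out the members, were Ppm1l (0.989), Wdr44 (0.987), Mustn1 (0.986), 4930512H18Rik (0.986) and Cux1 (0.986). The arrays of both groups enter this measure, so it follows the group difference. Their changes were −0.33, −0.64, −0.75, −1.46 and −0.22 in that order.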

How the data were processed

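Each of the 8 one-colour arrays read biotin-labelled cRNA of a tongue bud sample, per the labels' protocols. The authors deposited 1 log2 expression value per probe set and array, and RMA is named in the submitters' processing notes; the sources used here give neither its version nor its settings. RMA aligns the arrays, so a shift common to most genes is removed.

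Of 45101 probe sets, 64 were array controls, 34945 named 1 gene, 932 several and 9160 none. A gene stood as its probe set with the highest mean. The group comparison used limma 3.58.1 under R 4.3.3 (two-sided, Benjamini-Hochberg over 18193 genes or 34945 probe sets, called at an adjusted p of 0.05). SE and 95% intervals are moderated. No detection calls were used, and the number of arrays limits the precision. On simulated data for 18193 genes 74 of 100 falls of 0.5 and 95 of 100 falls of 1 were recovered, with 12 false calls; the simulated noise was independent between genes, which real arrays need not be.

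All members are named, with list genes that passed or, in lists where none did, had the 3 smallest p-values; other list genes named were chosen after their values were seen. Of 145 list entries 9 had no probe set of their own and were not analysed here. Members and lists were chosen with earlier results of these data known. Promoter windows and gene order come from RefSeq (GRCm38.p6), where all 10 members matched. Alternatives were other probe set choices, normalizations, filters, variance models, a replicate block and left-out arrays.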

Additional observations from a re-analysis of the deposited data

Results flagged for a closer look

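Of 128 groups of 4 values examined, 8 held 1 array far from the other 3 (past Dixon's 95% critical value), where chance gives about 1 in 20. Mutant 3 was the low array for Mylpf (12.59 against 12.89 to 12.94 on the other mutants), Myom1 (7.94 against 8.37 to 8.44), Myog (12.22 against 12.38 to 12.40) and the difference Myl4 minus Myl1 (−1.20 against −1.04 to −1.003). Mutant 1 was low for Myl3 (5.83 against 5.91 to 5.93) and high for Myh1 minus Myh3 (−5.11 against −5.54 to −5.48). Control 1 was low for Myh7 minus Myh3 (−3.34 against −2.77 to −2.76). Control 4 was high for Myh7b (5.98 against 5.85 to 5.87).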

How the results depend on the processing

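Over 16 alternative settings the number of members that fell was 6 to 8 (6 to 8 with 1 array left out) and 0 rose. Over 15 settings 6 to 9 member probe sets fell. Myh3, Myh8, Myl1, Myl3, Myl4 and Mylpf kept their calls in all 16, and Myh1 and Myh6 never passed. Of the 71 genes of the other lists 31 to 37 fell. The 2 that rose became 1 with the mean of all probe sets (Esrrg lost its call) and 1 with dim probe sets left out (Tnni3 was then not tested) and 3 with trended, robust variances (Myh10 was added), and the other list chains Myh4 and Myh7b were among the dim sets. With the replicate number as a block, 8 members (Myl2 at an adjusted p of 0.0429) and 6 member probe sets fell, and 966 genes were called in all, against 1768; Myh7b, Myl9, Vgll2, Mef2d, Prrx1, Pecam1, Acta2, Smtn, Csf1r and Sox10 lost their calls and Des and Mymk gained one. The titles do not say whether the numbers pair the arrays. Same-numbered deviations correlated at −0.40, 0.02, −0.18 and −0.16, and 0 of 8 arrays correlated best with its own number. The block nevertheless lowered the SE of every member but Myh1. For Myh3 it was 0.059 with the block and 0.098 without, for Myh8 0.088 and 0.156, and for Myh1 0.222 and 0.204. Whether the members' values are paired by number was not tested. The shift of Myl3 minus Myl1 ranged from −0.02 to 0.30. After quantile normalization or without control 1, 6 chains each passed against Myog (adjusted p = 0.0476 in the exact test). These 6 stood at the smallest p the exact test allows. The main setting had fewer chains at that p, which alone kept them from passing there. Both sets of 6 held Myh8, Myl4, Myl1 and Mylpf, which shifted down, and Myh6, which shifted up. The remaining chain was Myh3 after quantile normalization and Myh7 without control 1, both shifted down. Values near or below the median of probe set means limit Myl2, Myl3, Myh2, Myh4, Myh7b and Myh6, and no background level was measured.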
